A study of Arabidopsis thaliana with 15 samples.

Results

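The transcript state of Arabidopsis thaliana seedlings after UV-B was set against the state of seedlings that lack functional PIF4 and PIF5 and saw no UV-B. Wild type (Col-0) that had received 6 h of supplementary narrowband UV-B at an acclimation level was compared with the double mutant pif4-101 pif5-1 kept in low white light, with 3 libraries of each. Both groups consisted of whole seedlings of the Col-0 background, 4 days old and 30 per sample, grown on sucrose-containing medium in continuous white light, and the replicates came from independent plates according to the series design. These 6 libraries were chosen by genotype and light from 15 in the series, whose other 9 hold wild type in white light and uvr8-6, which lacks the UV-B photoreceptor, in both light conditions. Counts were deposited for 33602 genes, of which 20833 had enough reads to be tested, and all of these are covered here. The mutant combines 1 allele of each gene, and no other allele is analysed here. Because light and genotype changed together, their parts in any difference cannot be told apart within these 6 libraries, so levels in wild type in white light and in uvr8-6 under UV-B are given as side values where they bear on a result.

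UVR8 is the plant's UV-B photoreceptor. Once it has absorbed UV-B its dimer falls apart, the monomer binds the ubiquitin ligase component COP1, and transcription factors such as HY5 accumulate and turn on flavonoid and photoprotection genes. PIF4 and PIF5 are basic helix-loop-helix transcription factors that bind G-box and PBE-box sequences and drive auxin synthesis, auxin response and elongation growth, as in shade and warmth. UVR8 signalling also lowers PIF4 and PIF5 activity, which is why the UV-B state and the state without these factors invite comparison. Whether the UV-B state resembles the loss of both factors, and where it departs from it, is the question that the comparison addresses.

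The 3 UV-B libraries held 25.5 to 26.6 M counted reads and the 3 white-light mutant libraries 23.4 to 30.4 M, and a gene without a read in a library is bounded by 3 reads. This is 0.121 to 0.131 CPM under UV-B and 0.102 to 0.133 CPM in the mutant (counting error alone). CPM are reads relative to the scaled library size and are not divided by gene length, so levels are compared only within a gene. Libraries of a group correlated at 0.985 to 0.989 under UV-B and at 0.975 to 0.989 in the mutant (Pearson's r of log levels across genes). The first principal component, with 65.7% of the variance, separated the groups. PIF5 (AT3G59060, listed as PIL6 in the annotation) had 107, 119.5 and 133 CPM in wild type under UV-B, against 4.66, 4.92 and 5.46 CPM in pif4-101 pif5-1 in white light. Levels of PIF4 (AT2G43010) were 38.3, 91.9 and 76.5 CPM under UV-B against 82.9, 79.4 and 100.0 CPM in the mutant, which overlap. PIF4 counts do not check the pif4-101 allele, because they sum reads over the whole gene. UVR8 (AT5G63860) did not pass the test, with 81.5, 94.2 and 94.3 CPM in wild type under UV-B, against 97.1, 96.5 and 94.0 CPM in pif4-101 pif5-1 in white light. Green-tissue markers were high in both groups, with 5 genes summing to 23669 to 34769 CPM under UV-B and 26554 to 33745 CPM in the mutant. The 4 root markers summed to 194 to 248 CPM under UV-B and 119.9 to 164 CPM in the mutant, and 4 seed markers to 0.698 to 1.55 CPM under UV-B and 1.50 to 13.1 CPM in the mutant, with SESA1 at 0 in all UV-B libraries. Whole seedlings were measured in bulk, so fewer cells of a type and less RNA per cell cannot be told apart, and the part of tissue makeup in the results was not tested.

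Wild type under UV-B and white-light pif4-101 pif5-1 differed at 6304 genes in edgeR's quasi-likelihood test at a Benjamini-Hochberg adjusted p under 0.05. Of these, 3668 were higher under UV-B, which is 17.6% of the genes tested, and 2636 were lower, which is 12.7%. Most differences were small, with a median absolute log2 fold change of 0.69 among called genes (quartiles 0.45 and 1.12). At least 2-fold differences were called for 1187 genes that were higher and 702 that were lower (962 and 929 with upper quartile scaling, 970 and 903 with library size alone), and at least 4-fold for 322 and 159. Libraries of the groups did not overlap for 4988 genes above and 3989 genes below, together 43.1% of the genes tested. In contrast, the 95% interval of the log2 fold change lay between -1 and 1 for 14802 genes (71.1%), which bounds their difference below 2-fold. Among the 14529 genes without a call, 11686 had such a bounded interval and 2843 had a wider one, for which the depth and spread leave a 2-fold difference possible.

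The balance of higher and lower calls depended on scaling, also among differences of at least 2-fold. With TMM scaling 58.2% of the calls were higher under UV-B, but with upper quartile scaling 39.8% and with library size alone 42.4%, which moved the median over all genes to -0.10 and -0.09 on the log2 scale, from 0.01. The most abundant transcript differed too, since CAB1 (AT1G29930), which encodes a light-harvesting antenna protein, took 1.38 to 1.88% of reads under UV-B and 3.52 to 4.23% in the mutant. Without UV-B replicate 2 the lower genes numbered 1752, the only one of the 6 left-out libraries that moved this count by more than 1.5 times. No called gene among those named changed direction under another scaling, but the calls of LDOX, HCT, GH3.6, PIN4, CYP90D1, CRY2, GUN4, PORC, CSD1 and SOT16 described below were lost with upper quartile scaling. Among the white-light wild-type libraries used as side values, replicate 2 had the lowest level of the 3 at all 26 tested PIF target genes, so the side counts below are also given without it.

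**Figure D1:**
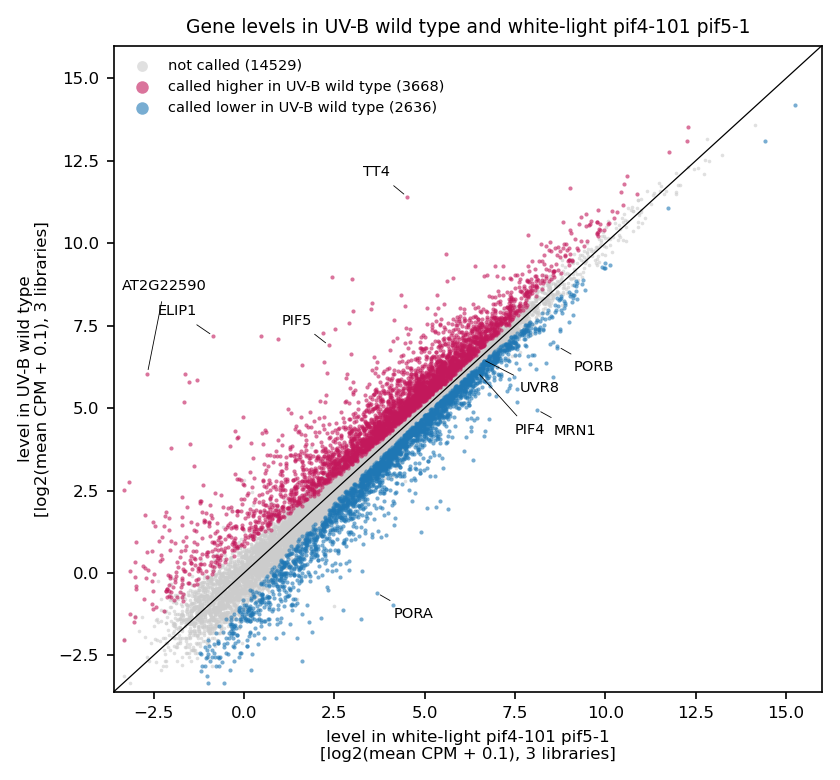
Mean level of every tested gene in wild type under UV-B (vertical axis) against pif4-101 pif5-1 in white light (horizontal axis), as log2 of the mean CPM of 3 libraries plus 0.1. Each point is 1 gene, the line marks equal levels, and coloured points are the 3668 genes called higher and the 2636 called lower under UV-B. Most genes lie close to the line, while TT4, ELIP1 and PIF5 stand far above it and PORA and MRN1 far below it.

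In the upward direction the leading genes were of several kinds, among them TT4 and FLS1 of flavonoid synthesis, ELIP1 and GPX7 of chloroplast protection, the cold-induced COR15A and several genes without a well-described role. The 12 named here had the largest fitted fold changes among 3192 called genes whose UV-B mean reached 5 CPM and whose libraries were fully separated. AT2G22590, a member of the UDP-glycosyltransferase superfamily, had 64.0, 53.2 and 80.4 CPM in wild type under UV-B, against 0.133, 0.0380 and 0 CPM in pif4-101 pif5-1 in white light (log2 fold change 10.20 ± 0.88, edgeR adjusted p = 8.6e-10; errors of log2 fold changes are SE). The gene was near 0 in the mutant and high in all UV-B libraries, and in uvr8-6 under UV-B the mean was 0.169 CPM. COR15A, a cold-induced gene whose product protects chloroplast membranes, had 0.821, 14.7 and 1.44 CPM in wild type under UV-B, against 0, 0 and 0 CPM in pif4-101 pif5-1 in white light. Pooled over the libraries these are 418 reads against 0, at least a 155-fold difference with 3 reads as the bound over the group (counting error alone). Without UV-B replicate 2, which held most of the reads, the pooled difference was at least 29.6-fold. Neither value includes the spread between the UV-B libraries, of which the lowest had 0.821 CPM. AT4G34550, an F-box protein gene, had 4.62, 6.88 and 8.59 CPM under UV-B and 475 reads in all, against 1 read in the mutant (ratio 527, exact counting interval 94.1 to 20857).

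Next came ELIP1, encoding an early light-induced protein that binds chlorophyll under light stress, with 171, 127 and 138 CPM in wild type under UV-B, against 0.576, 0.150 and 0.644 CPM in pif4-101 pif5-1 in white light (log2 fold change 8.30 ± 0.39, edgeR adjusted p = 8.6e-10). UGT84A1, which glucosylates hydroxycinnamic acids such as sinapate, had 57.6, 50.5 and 58.3 CPM in wild type under UV-B, against 0.399, 0 and 0.339 CPM in pif4-101 pif5-1 in white light (log2 fold change 7.81 ± 0.46, edgeR adjusted p = 2.0e-09). AT5G62210, annotated as embryo-specific protein 3, had 62.2, 44.2 and 65.4 CPM under UV-B and 0.532, 0.188 and 0.203 CPM in the mutant. For these 3 genes each mutant library lay below 1 CPM, and full separation of the libraries was part of how they were chosen. GPX7, a chloroplast glutathione peroxidase gene, had 35.2, 31.8 and 42.3 CPM under UV-B against 0.222, 0.225 and 0.203 CPM in the mutant (log2 fold change 7.36 ± 0.46, edgeR adjusted p = 4.0e-09). TT4, chalcone synthase and the entry enzyme of flavonoid synthesis, had 3034, 2477 and 2672 CPM in wild type under UV-B, against 29.4, 16.4 and 22.5 CPM in pif4-101 pif5-1 in white light (log2 fold change 6.91 ± 0.53, edgeR adjusted p = 3.6e-06). FLS1, flavonol synthase, had 595, 437 and 476 CPM under UV-B against 6.03, 3.08 and 6.81 CPM in the mutant (log2 fold change 6.56 ± 0.54, edgeR adjusted p = 3.5e-06). The remaining 2 genes of this kind were AT2G23910, a Rossmann-fold protein gene (6.79 ± 0.29), and AT5G17040, a further UDP-glycosyltransferase gene (6.46 ± 0.49).

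One of the 12 was not high in every UV-B library. AT3G01345, which encodes an uncharacterized protein, had 1.34, 96.7 and 100.1 CPM in wild type under UV-B, against 0.310, 0.263 and 0.102 CPM in pif4-101 pif5-1 in white light. Its wild-type libraries in white light had 99.2, 0.638 and 94.0 CPM, so that both wild-type groups held libraries near 1 and near 100 CPM, whereas no mutant library of either genotype exceeded 1 CPM. The call (log2 fold change 8.22 ± 2.54, edgeR adjusted p = 0.0027) was not made by limma-voom (adjusted p = 0.40). Of the 12, AT4G34550, UGT84A1, GPX7 and TT4, share bases with a gene annotated on the other strand. The kit preserves strand, but whether counting used it is not given in the sources used here, so their reads and those of the partner cannot be told apart. The same limit holds for further genes whose values are given below or above, namely CAB1, F3H, MYB11, GL3, GSTF12, AT4G14090, 4CL1, ALDH2C4, PIF1, PIF6, PIF7, LNG1, LNG2, IAA3, SAUR61, BZR1, BES1, RVE1, ELF3, LUX, FKF1, PHOT2, LHCB6, GUN4, PORB, PORC, ARR6, ARR8, ARR9, HSP101, CSD1, SMR5, MYC2, CBF3, ASFT, KCS2, CASP1 and EXPA7. BBX32 shares bases with a gene on its own strand.

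The promoters of the first 3 genes are shown because PIF proteins bind 2 short motifs that can be looked for in them. Each runs from 250 bases before to 50 bases after the annotated gene start in RefSeq's TAIR10.1 (the submitters name TAIR10), 5′ to 3′ on the gene's strand, with a G-box (CACGTG, its own reverse complement) or a PBE-box (CATGTG or CACATG) in capitals. The COR15A window holds 1 G-box, at position -28 from the start, and the windows of AT2G22590 and AT4G34550 hold neither motif.
AT2G22590, chr2:9592706-9593005, plus strand: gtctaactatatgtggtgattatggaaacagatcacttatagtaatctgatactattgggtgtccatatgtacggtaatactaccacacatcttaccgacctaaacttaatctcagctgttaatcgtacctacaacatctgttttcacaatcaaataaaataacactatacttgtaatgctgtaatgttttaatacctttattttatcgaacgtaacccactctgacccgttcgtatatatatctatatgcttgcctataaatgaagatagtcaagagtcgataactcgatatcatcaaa
COR15A, chr2:17712281-17712580, minus strand: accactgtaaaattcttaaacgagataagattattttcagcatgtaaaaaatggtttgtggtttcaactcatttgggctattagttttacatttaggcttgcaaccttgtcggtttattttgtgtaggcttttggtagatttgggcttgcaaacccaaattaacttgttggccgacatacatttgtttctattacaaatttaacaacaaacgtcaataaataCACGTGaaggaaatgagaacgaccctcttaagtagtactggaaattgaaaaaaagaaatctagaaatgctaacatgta
AT4G34550, chr4:16502282-16502581, plus strand: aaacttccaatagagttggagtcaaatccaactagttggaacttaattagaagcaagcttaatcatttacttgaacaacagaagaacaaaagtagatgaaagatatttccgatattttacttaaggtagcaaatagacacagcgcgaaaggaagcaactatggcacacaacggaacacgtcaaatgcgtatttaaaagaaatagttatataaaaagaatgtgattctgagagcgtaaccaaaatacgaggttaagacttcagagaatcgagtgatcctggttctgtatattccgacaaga

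In the downward direction the 12 leading genes, except for AT4G08093 and AT5G35935, had mean levels in white-light wild type that were closer on a log scale to the mutant than to UV-B wild type. These 12 had the largest fitted fold changes among 1977 called genes whose mutant mean reached 5 CPM and whose libraries were fully separated. AGP30, an arabinogalactan protein gene, had 0.821, 0.241 and 0.174 CPM in wild type under UV-B, against 30.8, 7.39 and 14.4 CPM in pif4-101 pif5-1 in white light (log2 fold change -5.40 ± 0.90, edgeR adjusted p = 0.00014). PORA, protochlorophyllide oxidoreductase of etiolated tissue, had 0.173, 0.764 and 0.741 CPM in wild type under UV-B, against 14.0, 10.6 and 13.4 CPM in pif4-101 pif5-1 in white light (log2 fold change -4.48 ± 0.47, edgeR adjusted p = 2.5e-06). Wild type in white light had 15.1, 9.32 and 15.4 CPM of PORA, near the mutant. MRN1, marneral synthase of triterpene metabolism, had 26.0, 39.3 and 27.2 CPM in wild type under UV-B, against 212, 309.8 and 309.7 CPM in pif4-101 pif5-1 in white light (log2 fold change -3.17 ± 0.31, edgeR adjusted p = 8.5e-06). CYP705A30 had 2.68, 5.59 and 3.53 CPM under UV-B against 29.6, 47.3 and 43.1 CPM in the mutant (log2 fold change -3.34 ± 0.37, edgeR adjusted p = 1.7e-05). CYP710A4 had 1.38, 3.38 and 2.05 CPM against 19.2, 38.1 and 32.8 CPM (log2 fold change -3.72 ± 0.65, edgeR adjusted p = 0.00068); both encode cytochromes P450. AT5G46890 and AT5G46900, neighbours of the lipid-transfer-like superfamily that may share reads, were lower by similar amounts (-3.76 ± 0.25 and -3.29 ± 0.30). In uvr8-6 under UV-B the mean levels were 74.1 CPM of MRN1 and 8.33 CPM of CYP705A30, against 199 and 30.9 CPM in uvr8-6 in white light. For PORA these means were 8.62 and 16.8 CPM, and for AGP30 6.29 and 6.82 CPM. Differences within uvr8-6 were not tested here.

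Smaller levels made up the rest. AT5G62340, of the invertase and pectin methylesterase inhibitor superfamily, had 1.34, 0.563 and 0.959 CPM under UV-B against 19.6, 4.01 and 5.25 CPM in the mutant (log2 fold change -3.32 ± 0.61, edgeR adjusted p = 0.00087). CER4, a fatty acyl reductase gene of wax synthesis, had 1.77, 0.442 and 0.698 CPM under UV-B against 4.39, 8.29 and 9.42 CPM in the mutant (log2 fold change -2.94 ± 0.51, edgeR adjusted p = 0.00047). LCR85, which encodes a small cysteine-rich protein, had 0.173, 0.483 and 0.436 CPM in wild type under UV-B, against 4.08, 7.92 and 7.69 CPM in pif4-101 pif5-1 in white light, and limma-voom did not call it (adjusted p = 0.06). That no UV-B library of these 3 genes reached the lowest mutant library was required by the rule that chose them.

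A pair of loci in this direction were high in the mutant but not in white-light wild type. AT4G08093, a transcribed pseudogene, had 0.130, 0.241 and 0.480 CPM in wild type under UV-B, against 8.91, 9.19 and 10.03 CPM in pif4-101 pif5-1 in white light (log2 fold change -5.03 ± 0.52, edgeR adjusted p = 3.0e-06), and none of the 9 other libraries of the series exceeded 0.554 CPM. AT5G35935, a pseudogene, had 0.993, 5.51 and 4.88 CPM in wild type under UV-B, against 35.2, 32.5 and 32.8 CPM in pif4-101 pif5-1 in white light (log2 fold change -3.14 ± 0.51, edgeR adjusted p = 0.00045). For AT5G35935 wild type in white light had 8.24, 1.23 and 9.71 CPM, and uvr8-6 under UV-B had 21.3, 27.6 and 25.1 CPM, near the level of pif4-101 pif5-1.

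The promoters of the first 3 lower genes are shown in the same way. The AGP30 window holds 1 PBE-box at position -17, and those of AT4G08093 and PORA hold neither motif.
AGP30, chr2:14295304-14295603, minus strand: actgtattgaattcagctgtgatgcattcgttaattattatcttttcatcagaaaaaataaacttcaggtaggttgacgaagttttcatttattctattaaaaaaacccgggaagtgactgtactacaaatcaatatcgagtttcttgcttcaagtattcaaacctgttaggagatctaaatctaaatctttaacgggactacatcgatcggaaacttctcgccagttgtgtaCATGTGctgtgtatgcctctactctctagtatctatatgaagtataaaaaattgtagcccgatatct
AT4G08093, chr4:4989903-4990202, plus strand: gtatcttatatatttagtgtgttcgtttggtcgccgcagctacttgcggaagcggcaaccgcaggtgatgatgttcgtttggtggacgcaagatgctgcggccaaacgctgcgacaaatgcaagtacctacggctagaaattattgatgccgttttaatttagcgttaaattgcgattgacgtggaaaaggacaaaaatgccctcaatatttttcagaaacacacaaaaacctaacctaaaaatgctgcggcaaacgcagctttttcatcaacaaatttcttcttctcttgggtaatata
PORA, chr5:21992765-21993064, minus strand: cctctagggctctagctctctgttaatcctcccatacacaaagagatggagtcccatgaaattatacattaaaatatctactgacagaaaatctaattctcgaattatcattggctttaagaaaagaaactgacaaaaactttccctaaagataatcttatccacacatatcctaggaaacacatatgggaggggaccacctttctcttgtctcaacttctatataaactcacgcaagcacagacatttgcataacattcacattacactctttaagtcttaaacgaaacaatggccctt

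**Figure D2:**
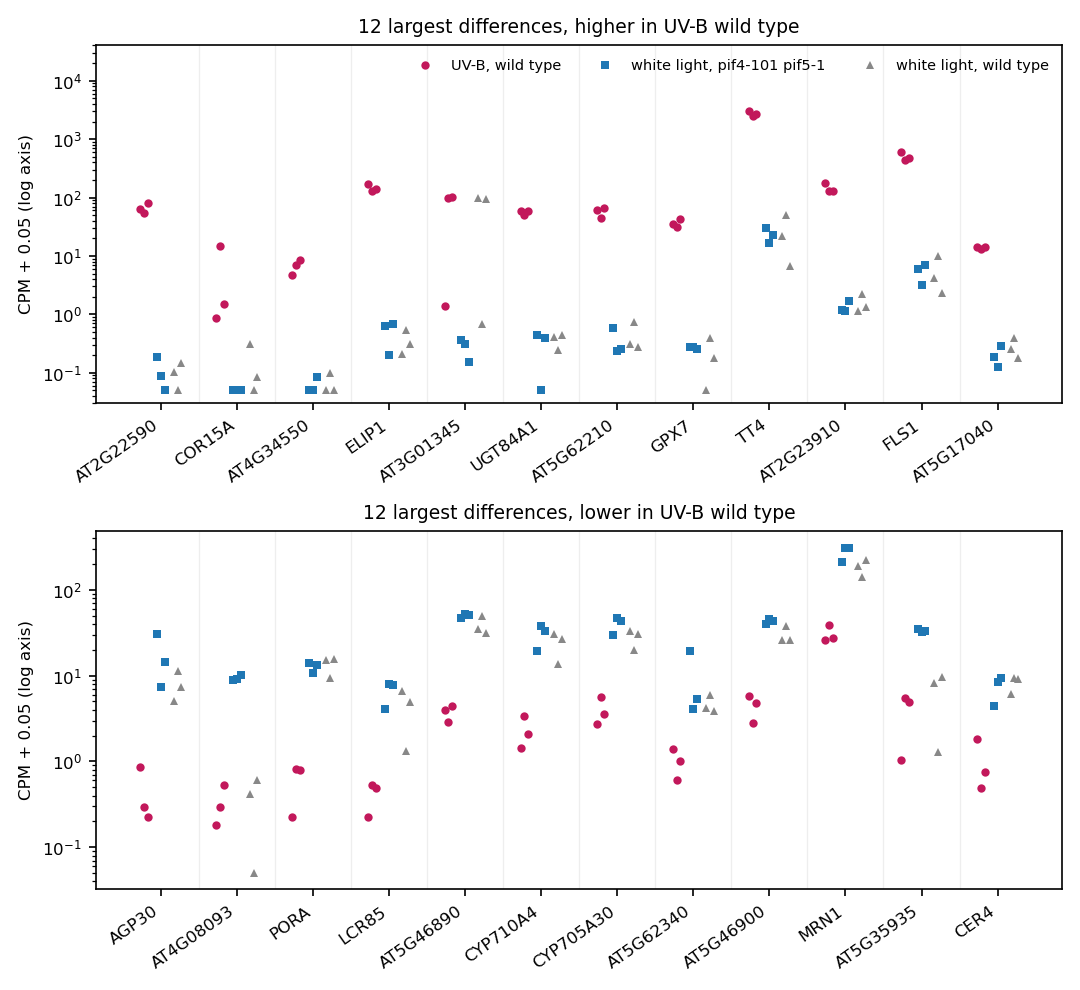
CPM plus 0.05 on a log axis in each library for the 12 genes with the largest differences in each direction, with 3 libraries of wild type under UV-B, white-light pif4-101 pif5-1 and white-light wild type per gene. In the upper panel the UV-B points lie above both white-light groups except for AT3G01345, where wild-type libraries of either light condition are split. In the lower panel AT4G08093 and AT5G35935 are high in the mutant alone among the 3 groups shown.

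Most genes of the UVR8 pathway and most genes used as its markers differed between the states. The list holds markers of the UV-B response and was chosen with earlier results of these data known. Its count was therefore partly set by that choice. Of 19 tested members 16 were higher under UV-B (84.2%, beside 17.6% of all genes) and none lower. The median log2 fold change was 1.85, beside 0.01 over all genes tested. Against wild type in white light, a group that both side comparisons share, 17 members were higher in UV-B wild type, where 16.1% of all genes were higher and 11.3% lower. In pif4-101 pif5-1 edgeR called none of them (2 higher without white-light wild-type replicate 2), where 1.72% of all genes were higher and 3.54% lower. RUP2, a repressor that returns UVR8 to its dimer, had 175, 178 and 163 CPM in wild type under UV-B, against 23.7, 22.9 and 20.8 CPM in pif4-101 pif5-1 in white light (log2 fold change 2.94 ± 0.19, edgeR adjusted p = 1.1e-07). ELIP2 had 160.5, 106 and 143 CPM under UV-B against 2.48, 1.39 and 1.56 CPM in the mutant (log2 fold change 6.25 ± 0.36, edgeR adjusted p = 3.9e-08). MYB13, a transcription factor gene of the UVR8 pathway, had 23.1, 15.8 and 20.7 CPM under UV-B against 4.21, 1.35 and 2.71 CPM in the mutant (log2 fold change 2.86 ± 0.29, edgeR adjusted p = 6.4e-06). The groups did not overlap for any of these, and uvr8-6 under UV-B had a mean of 20.4 CPM of RUP2, near the white-light mutant.

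HY5, COP1 and the SPA genes differed by smaller folds than ELIP1, ELIP2 and GPX7. HY5, the bZIP factor downstream of UVR8, had 73.6, 67.0 and 67.2 CPM in wild type under UV-B, against 18.7, 19.6 and 19.5 CPM in pif4-101 pif5-1 in white light (log2 fold change 1.85 ± 0.14, edgeR adjusted p = 3.9e-07). COP1 had 78.8, 74.1 and 77.3 CPM against 42.2, 41.6 and 43.0 CPM (log2 fold change 0.86 ± 0.08, edgeR adjusted p = 1.4e-06). Both were named with their values in view. SPA1 (0.75 ± 0.09) and SPA2 (0.49 ± 0.08), partners of COP1, were called but bounded below 2-fold. The 3 members without a call were UVR8, the transcription factor gene WRKY36 (95% interval -0.45 to 0.28) and the photolyase gene UVR3 (-0.06 to 0.47), all bounded below 2-fold. This count stayed at 16 in every alternative except the test against a 1.5-fold change, which gave 14.

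Flavonoid and anthocyanin genes were higher in 22 of 23 tested cases (95.7%, beside 17.6% of all genes) and lower in none. Their median log2 fold change was 2.71. MYB90, a regulator of anthocyanin synthesis, had too few reads to be tested. The enzymes that build the flavonol skeleton led the list. F3H, flavanone 3-hydroxylase, had 500.4, 447 and 489 CPM in wild type under UV-B, against 9.89, 5.55 and 8.34 CPM in pif4-101 pif5-1 in white light (log2 fold change 5.92 ± 0.28, edgeR adjusted p = 1.7e-08). CHIL, a chalcone isomerase-like protein that assists chalcone synthase, had 273, 232 and 236 CPM against 8.56, 5.82 and 9.69 CPM (log2 fold change 4.94 ± 0.25, edgeR adjusted p = 1.9e-08). MYB11, a regulator of flavonol synthesis, had 2.12, 2.25 and 1.05 CPM under UV-B against 0.0440, 0 and 0.0340 CPM in the mutant, which is 129 reads against 2 (ratio 71.6, exact counting interval 19.4 to 597). That interval pools the reads and leaves out the spread between libraries. The exception without a call was EGL3, a regulator of anthocyanin and trichome genes (95% interval -0.93 to 0.08), and TTG1, its WD-repeat partner, was called with a bounded difference (0.42 ± 0.09).

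The calls of 7 genes of anthocyanin synthesis and its regulation were lost when single libraries were left out. DFR, dihydroflavonol reductase and the first committed step of anthocyanin synthesis, had 11.7, 1.85 and 4.27 CPM in wild type under UV-B, against 1.55, 0.413 and 1.25 CPM in pif4-101 pif5-1 in white light (log2 fold change 2.47 ± 0.75, edgeR adjusted p = 0.023), and UV-B replicate 1 had the highest level while the other UV-B libraries lay close to the mutant. Without UV-B replicate 1 the calls of DFR, LDOX, MYB75, TT8, GL3, AT4G14090 and UGT79B1 were lost, and each of them was also lost without at least 1 of the mutant libraries. Without UV-B replicate 1 the log2 fold change of DFR was 1.52 (edgeR adjusted p = 0.157), and those of the 7 genes ranged from 0.86 for GL3 to 1.97 for UGT79B1. GSTF12, a glutathione transferase gene needed for anthocyanin transport, was called in all 18 alternatives (log2 fold change 4.76 ± 0.51, edgeR adjusted p = 9.6e-06). The choice of these 7 genes was made with their values in view. The list count ranged from 15 to 21 over the 6 left-out libraries.

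Phenylpropanoid and sinapate ester genes were higher in 11 of 19 cases (57.9%, beside 17.6% of all genes) and lower in none (lower in 2 with upper quartile scaling). Their median log2 fold change was 0.71. The entry enzymes PAL1 and PAL2, phenylalanine ammonia-lyases, were both higher. PAL1 had 1375, 1038 and 1245 CPM in wild type under UV-B, against 218, 248 and 238 CPM in pif4-101 pif5-1 in white light (log2 fold change 2.38 ± 0.13, edgeR adjusted p = 2.5e-08). PAL2 had 679.8, 531 and 680.3 CPM against 129.8, 153 and 147 CPM (log2 fold change 2.14 ± 0.14, edgeR adjusted p = 1.1e-07). 4CL3, the 4-coumarate ligase of the flavonoid branch, had 102, 75.6 and 73.5 CPM under UV-B against 4.34, 3.86 and 5.56 CPM in the mutant (log2 fold change 4.18 ± 0.39, edgeR adjusted p = 5.0e-06). UGT84A2, a sinapate glucosyltransferase, had 312, 255 and 259 CPM under UV-B against 23.8, 20.3 and 22.1 CPM in the mutant (log2 fold change 3.64 ± 0.12, edgeR adjusted p = 4.7e-10). The lignin-branch genes HCT (0.34 ± 0.09) and CCoAOMT1 (0.55 ± 0.13) and the ligase 4CL1 (0.59 ± 0.10) were called with differences bounded below 2-fold. Among the members without a call, PAL4 (95% interval -0.42 to -0.00), 4CL2 (-0.53 to -0.02), SNG1 (0.03 to 0.55), UGT84A4 (-0.11 to 0.76) and ALDH2C4 (0.05 to 0.73) were bounded likewise.

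**Figure D3:**
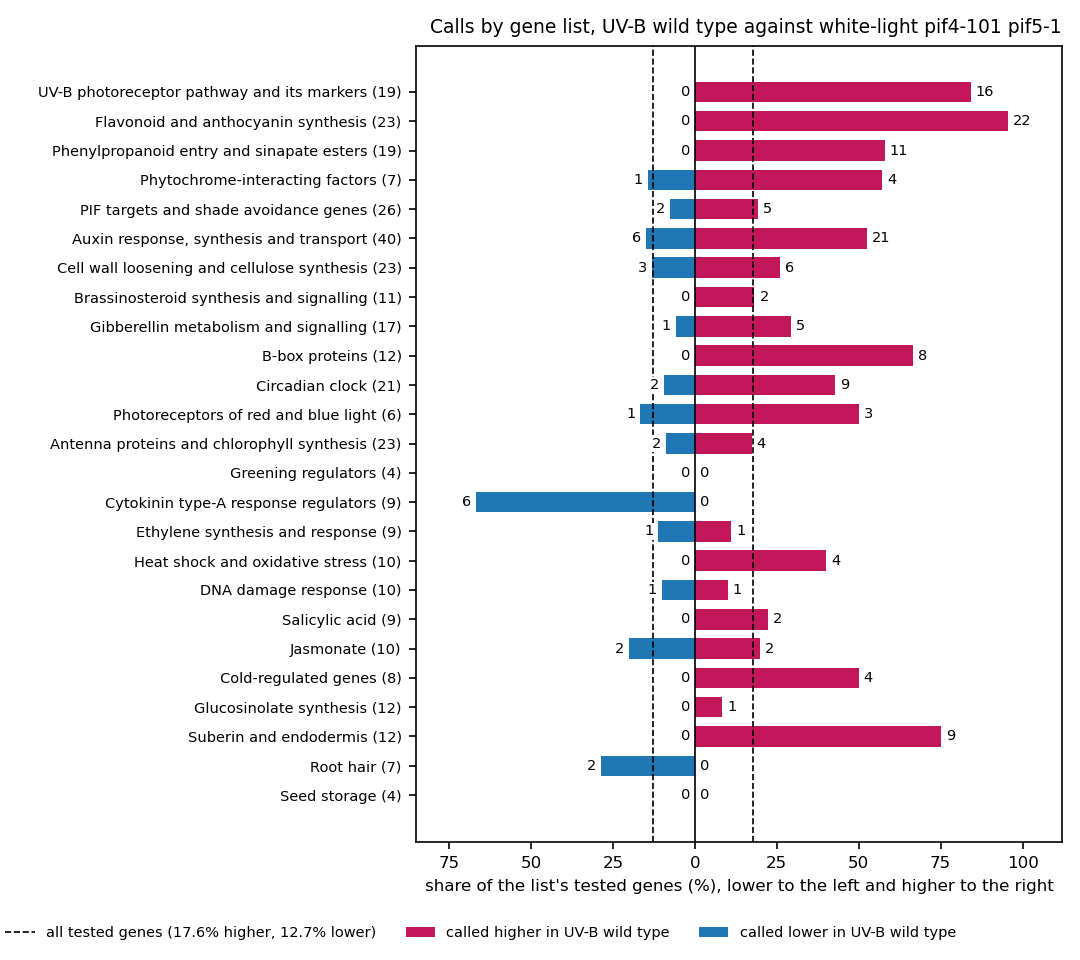
Share of the tested genes of each of 25 lists that were called higher (right) or lower (left) in wild type under UV-B relative to white-light pif4-101 pif5-1, with the number of called genes beside each bar and the number tested in parentheses. Dashed lines mark the shares over all tested genes, 17.6% higher and 12.7% lower. Flavonoid genes (22 of 23) and UV-B pathway genes (16 of 19) reach furthest to the right, and cytokinin response regulators (6 of 9) furthest to the left.

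Among the 7 phytochrome-interacting factor genes, 4 were higher and 1 lower under UV-B (57.1% and 14.3%, beside 17.6% and 12.7% of all genes). PIF5 is the mutated gene (log2 fold change 4.57 ± 0.21, edgeR adjusted p = 3.7e-09). UNE10, also known as PIF8, had 161, 154 and 136 CPM in wild type under UV-B, against 29.5, 31.9 and 31.4 CPM in pif4-101 pif5-1 in white light (log2 fold change 2.28 ± 0.11, edgeR adjusted p = 4.0e-09). PIF6 had 13.1, 7.72 and 10.4 CPM under UV-B against 4.39, 4.62 and 3.63 CPM in the mutant (log2 fold change 1.31 ± 0.19, edgeR adjusted p = 0.00012). PIF7, a factor of shade responses, had 36.4, 42.9 and 39.4 CPM under UV-B against 19.99, 27.6 and 28.3 CPM in the mutant (log2 fold change 0.64 ± 0.18, edgeR adjusted p = 0.014), a call lost without UV-B replicate 2 or mutant replicate 1. PIF3, a repressor of light responses in darkness, was lower with 23.6, 15.4 and 16.6 CPM under UV-B against 29.1, 25.4 and 28.2 CPM in the mutant (log2 fold change -0.57 ± 0.17, edgeR adjusted p = 0.017), and that call was lost without UV-B replicate 2, UV-B replicate 3 or mutant replicate 1. PIF1 was not called and bounded below 2-fold (95% interval -0.74 to -0.07). PIF4 was not called, with an interval of -1.19 to 0.50 that leaves a 2-fold lower level under UV-B possible.

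Targets of the PIFs and shade avoidance genes were called at shares near those of all genes. Of 26 tested, 5 were higher and 2 lower under UV-B than in pif4-101 pif5-1, which is 19.2% and 7.69% beside 17.6% and 12.7% of all genes. The median log2 fold change was 0.26. Set against the white-light wild-type libraries that both comparisons share, 18 were lower in UV-B wild type and 13 in the mutant, and edgeR called none higher in either. Over all genes 11.3% were lower in UV-B wild type and 3.54% in the mutant. Without white-light wild-type replicate 2 the counts of lower PIF targets were 19 and 20. They were 7 and 6 without replicate 1, and 13 and 6 without replicate 3. PIL1, a helix-loop-helix gene named for its likeness to PIF3, had 1.43, 2.05 and 1.57 CPM in wild type under UV-B, against 0.222, 0.225 and 0.237 CPM in pif4-101 pif5-1 in white light (log2 fold change 2.86 ± 0.68, edgeR adjusted p = 0.003), with 6.31, 1.72 and 5.28 CPM in white-light wild type. HFR1, which blocks PIF proteins by binding them, had 18.6, 35.5 and 29.8 CPM under UV-B against 5.05, 11.6 and 7.12 CPM in the mutant (log2 fold change 1.81 ± 0.34, edgeR adjusted p = 0.0012). BEE1, a brassinosteroid-responsive growth gene, had 12.5, 12.1 and 10.6 CPM under UV-B against 3.15, 3.75 and 3.56 CPM in the mutant (log2 fold change 1.75 ± 0.31, edgeR adjusted p = 0.00076). None of these 3 overlapped between the groups. For HFR1 and BEE1 the UV-B level differed from white-light wild type by a log2 fold change of 0.30 and -0.33, neither called (edgeR adjusted p = 0.55 and 0.44). The call of PIL1 was not made by limma-voom.

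The other 4 calls of this list were of smaller levels or smaller folds. IAA29, an auxin-induced repressor gene, had 4.92, 9.05 and 9.68 CPM under UV-B against 1.91, 1.84 and 2.00 CPM in the mutant (log2 fold change 2.04 ± 0.61, edgeR adjusted p = 0.019), and the call was lost when any library except UV-B replicate 1 was left out. PRE6, a growth-promoting helix-loop-helix gene, had 10.5, 13.7 and 12.1 CPM against 7.62, 5.59 and 7.49 CPM (log2 fold change 0.81 ± 0.24, edgeR adjusted p = 0.019), a call lost without UV-B replicate 2 or mutant replicate 2. PAR1, a shade-induced repressor of growth, was lower, with 9.85, 11.1 and 11.6 CPM under UV-B against 21.9, 22.4 and 19.6 CPM in the mutant (log2 fold change -0.97 ± 0.21, edgeR adjusted p = 0.0032). LNG1, a gene of longitudinal cell growth, was lower with 24.5, 28.3 and 29.2 CPM under UV-B against 53.2, 36.7 and 38.4 CPM in the mutant (log2 fold change -0.65 ± 0.18, edgeR adjusted p = 0.016), a call lost without UV-B replicate 1 or mutant replicate 1.

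Similar levels can be stated for only 5 of the 26. The 95% intervals lay below 2-fold for XTH15 (-0.89 to 0.55), HAT2 (-0.44 to 0.89), PAR2 (-0.39 to 0.91), HBI1 (-0.02 to 0.46) and LNG2 (0.06 to 0.52), which encode a cell wall enzyme, a homeodomain factor, a growth repressor, a growth-promoting factor and a cell elongation protein. XTH15 had 27.9, 20.7 and 32.2 CPM in wild type under UV-B, against 27.5, 32.3 and 30.9 CPM in pif4-101 pif5-1 in white light, and white-light wild type had 115, 39.5 and 112.4 CPM. The UV-B and mutant libraries overlapped for XTH15, and replicate 2 of white-light wild type came nearest to them. For 14 members the interval was wider than 2-fold, so neither a difference nor likeness was shown. The number higher ranged from 3 to 9 and the number lower from 1 to 3 over the alternatives other than the 1.5-fold test.

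**Figure D4:**
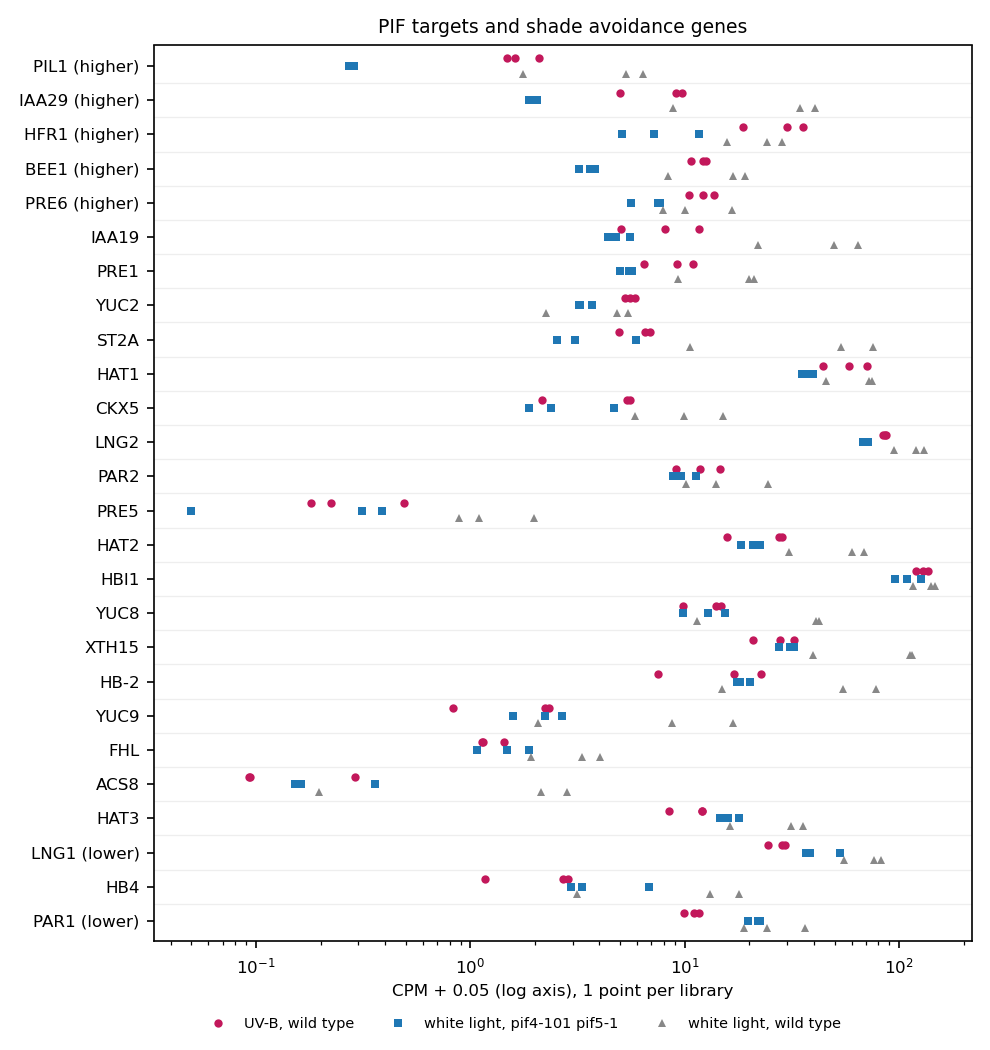
CPM plus 0.05 on a log axis for the 26 tested PIF targets and shade avoidance genes, 1 point per library, ordered by log2 fold change between wild type under UV-B and white-light pif4-101 pif5-1, with called genes marked. White-light wild type is drawn below both. UV-B points lie to the right of the mutant points for PIL1, HFR1 and BEE1, while both sets intermix for XTH15, YUC8 and HAT2, and 1 white-light wild-type point lies left of the other two for each gene.

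Auxin genes were higher in 21 of 40 cases (52.5%, beside 17.6% of all genes) and lower in 6 (15%, beside 12.7%), with a median log2 fold change of 0.86. Against the shared white-light wild type 1 was higher and 14 lower in UV-B wild type, while 28 were lower and none higher in the mutant. Over all genes 11.3% were lower in UV-B wild type and 3.54% in the mutant. Without white-light wild-type replicate 2 the counts of lower auxin genes were 15 and 30. They were 9 and 13 without replicate 1, and 10 and 21 without replicate 3. SAUR genes, small auxin-induced genes of cell expansion, led the higher members. SAUR20 had 8.34, 14.8 and 11.3 CPM in wild type under UV-B, against 2.22, 3.04 and 3.19 CPM in pif4-101 pif5-1 in white light (log2 fold change 2.02 ± 0.37, edgeR adjusted p = 0.00094), with a mean of 11.5 CPM in white-light wild type. SAUR62 had 11.2, 14.6 and 13.2 CPM under UV-B against 2.70, 4.73 and 4.20 CPM in the mutant (log2 fold change 1.74 ± 0.21, edgeR adjusted p = 3.3e-05). SAUR61 (2.58 ± 0.58), SAUR22 (2.36 ± 0.59) and SAUR21 (1.96 ± 0.42) were higher too, of which SAUR22 was not called by limma-voom. UV-B and mutant libraries did not overlap for these 5, but the SAUR19 to SAUR24 and SAUR61 to SAUR68 clusters hold near-identical copies, so counts may be split among neighbours.

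Among the 6 lower auxin genes were WAG2 and WAG1 and the conjugation genes GH3.1, GH3.2 and GH3.3, while other genes of conjugation and transport, given below, were higher or not called. WAG2, a kinase gene that directs auxin efflux, had 3.71, 1.57 and 2.05 CPM in wild type under UV-B, against 4.88, 6.04 and 5.18 CPM in pif4-101 pif5-1 in white light (log2 fold change -1.14 ± 0.26, edgeR adjusted p = 0.0041), and its relative WAG1 had 2.76, 2.05 and 2.27 CPM against 3.502, 5.14 and 3.93 CPM (log2 fold change -0.83 ± 0.19, edgeR adjusted p = 0.0039). GH3.2, an enzyme gene that joins auxin to amino acids, had 8.16, 6.11 and 5.84 CPM against 10.9, 14.9 and 14.1 CPM (log2 fold change -0.99 ± 0.25, edgeR adjusted p = 0.0076). GH3.1 (-1.64 ± 0.52) was lost without UV-B replicate 1, UV-B replicate 3 or mutant replicate 2. The same befell GH3.3 (-1.26 ± 0.41) without UV-B replicate 1, UV-B replicate 2 or mutant replicate 1. These 5 of the 6 lower members were chosen with their values in view. With single libraries left out the lower count ranged from 3 to 6 and the higher count from 12 to 21, and with the 12 higher members left without UV-B replicate 2; upper quartile scaling gave 17 higher.

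Bounded differences were found for 9 auxin genes. The intervals were narrow for the influx carrier AUX1 (-0.24 to 0.27), the synthesis gene TAA1 (-0.50 to 0.22), the efflux carrier PIN7 (-0.12 to 0.59), GH3.5 (-0.32 to 0.59) and IAA3 (-0.44 to 0.68), none of them called. AUX1 had 116, 121 and 119 CPM in wild type under UV-B, against 107, 124 and 122 CPM in pif4-101 pif5-1 in white light, and white-light wild type had a mean of 183 CPM. PIN3, PIN4, IAA7 and GH3.6 were called higher with bounded differences (0.63 ± 0.11, 0.36 ± 0.13, 0.62 ± 0.18 and 0.42 ± 0.13), of which PIN4 was lost without any 1 of the 6 libraries.

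**Figure D5:**
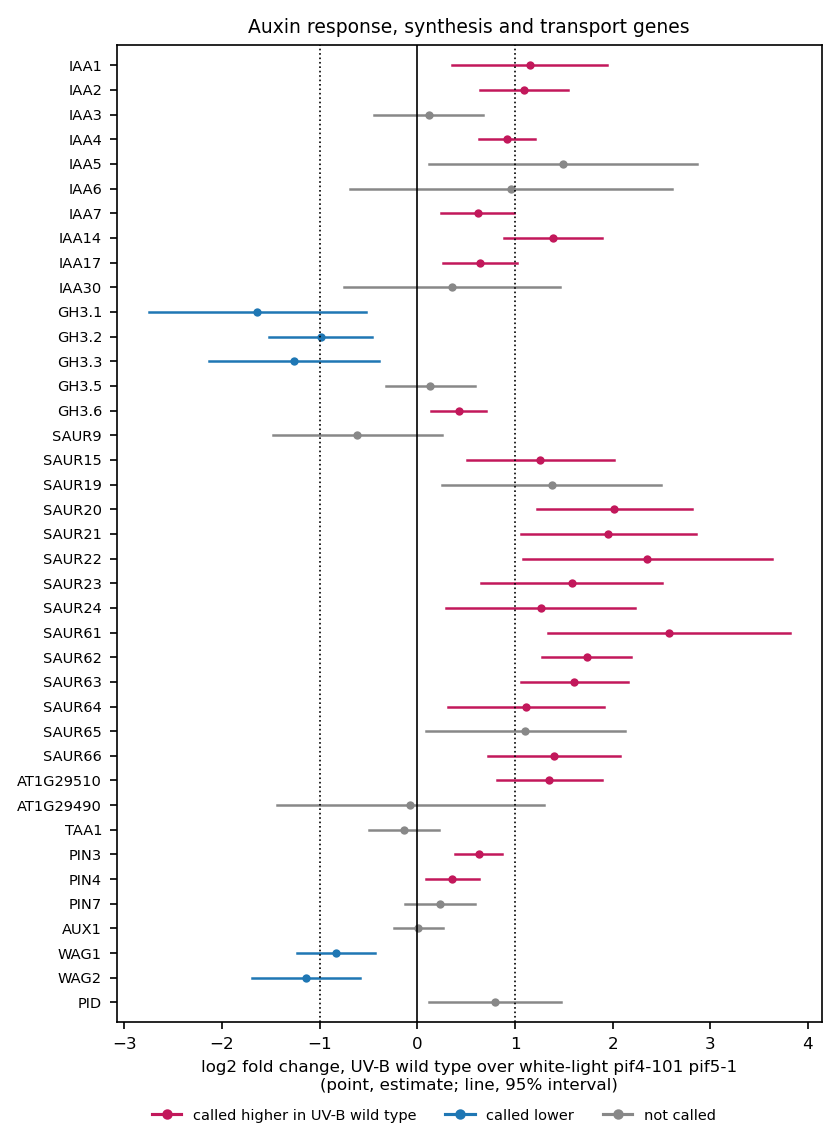
Log2 fold change between wild type under UV-B and white-light pif4-101 pif5-1 (point) with its 95% interval (line) for 39 of the 40 tested auxin genes, coloured by call, with dotted lines at -1 and 1. SAUR20, SAUR61 and SAUR62 lie wholly to the right of 1, and GH3.1, GH3.2, GH3.3, WAG1 and WAG2 lie to the left of 0.

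Cell wall genes showed a mixed picture, with 6 of 23 higher and 3 lower (26.1% and 13%, beside 17.6% and 12.7% of all genes). Differences bounded below 2-fold numbered 13 (56.5%, beside 71.1% of all genes). TCH4, a touch-induced xyloglucan enzyme gene, had 166, 183 and 176 CPM in wild type under UV-B, against 25.7, 32.7 and 51.8 CPM in pif4-101 pif5-1 in white light (log2 fold change 2.25 ± 0.58, edgeR adjusted p = 0.011). CESA5, a cellulose synthase subunit gene, had 195, 185 and 152 CPM under UV-B against 72.8, 64.1 and 74.96 CPM in the mutant (log2 fold change 1.33 ± 0.16, edgeR adjusted p = 2.9e-05). EXPB3, an expansin gene, had 54.0, 84.8 and 52.4 CPM against 28.6, 26.4 and 36.6 CPM (log2 fold change 1.06 ± 0.20, edgeR adjusted p = 0.00099). XTH19, a further xyloglucan enzyme gene, was lower with 6.91, 11.6 and 8.20 CPM under UV-B against 24.4, 31.8 and 24.2 CPM in the mutant (log2 fold change -1.59 ± 0.21, edgeR adjusted p = 7.3e-05), as was the expansin gene EXPB1 with a mean of 4.08 CPM against 12.1 CPM (log2 fold change -1.56 ± 0.18, edgeR adjusted p = 1.5e-05). The alpha-expansins EXPA1 (-0.07 to 0.49), EXPA4 (-0.46 to 0.50), EXPA8 (-0.18 to 0.97) and EXPA10 (-0.21 to 0.44) and the xyloglucan enzyme genes XTH4 (-0.19 to 0.83), XTH9 (-0.71 to 0.33) and XTH18 (-0.84 to 0.57) were not called and had bounded intervals.

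Of 11 brassinosteroid genes 2 were higher (18.2%, beside 17.6% of all genes), none was lower and 9 were bounded below 2-fold (81.8%, beside 71.1%), so neither share stood far from that of all genes. BR6OX2, the last enzyme of brassinolide synthesis, had 51.7, 48.3 and 41.0 CPM in wild type under UV-B, against 14.2, 19.02 and 18.1 CPM in pif4-101 pif5-1 in white light (log2 fold change 1.45 ± 0.12, edgeR adjusted p = 1.3e-06). DWF4, a rate-limiting hydroxylase of the pathway, had 29.0, 32.1 and 28.5 CPM under UV-B against 22.5, 28.9 and 24.8 CPM in the mutant (95% interval 0.02 to 0.44), both below the mean of 43.0 CPM in white-light wild type. The receptor gene BRI1 (-0.10 to 0.36) and the transcription factor genes BZR1 (0.03 to 0.56) and BES1 (0.01 to 0.45) were bounded as well. CYP90D1 was called (log2 fold change 0.63 ± 0.20, edgeR adjusted p = 0.025), but not without UV-B replicate 1, UV-B replicate 3, mutant replicate 1 or mutant replicate 2.

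Gibberellin genes were higher in 5 of 17 cases and lower in 1 (29.4% and 5.88%, beside 17.6% and 12.7% of all genes). GA3OX2, which makes the active hormone, had 5.57, 2.53 and 3.71 CPM in wild type under UV-B, against 0.532, 0.0750 and 0.102 CPM in pif4-101 pif5-1 in white light (log2 fold change 4.12 ± 0.61, edgeR adjusted p = 8.5e-05). Both GA2OX1 and GA2OX8, genes of enzymes that inactivate the hormone, were higher too. GA2OX1 had 1.34, 2.41 and 1.88 CPM under UV-B against 0.0890, 0.113 and 0.237 CPM in the mutant (log2 fold change 3.59 ± 0.61, edgeR adjusted p = 0.00019) and GA2OX8 had 1.94, 2.41 and 2.57 CPM against 0.177, 0.150 and 0.576 CPM (log2 fold change 2.87 ± 0.45, edgeR adjusted p = 0.00017). The receptor gene GID1B was higher (log2 fold change 0.63 ± 0.10, edgeR adjusted p = 0.00024) with a bounded difference, and RGL2, a DELLA growth repressor gene, was lower (log2 fold change -1.10 ± 0.24, edgeR adjusted p = 0.0032). The DELLA genes GAI (-0.74 to 0.19), RGA1 (-0.03 to 0.42), RGL1 (-0.59 to 0.20) and RGL3 (-0.41 to 0.47) and the receptor genes GID1A (-0.30 to 0.10) and GID1C (-0.16 to 0.27) were not called and had bounded intervals.

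B-box protein genes, whose products act with HY5 and COP1 in light signalling, were higher in 8 of 12 cases and lower in none. The higher share was 66.7%, beside 17.6% of all genes. BBX32 had 20.1, 17.9 and 19.6 CPM in wild type under UV-B, against 2.57, 2.18 and 3.39 CPM in pif4-101 pif5-1 in white light (log2 fold change 2.82 ± 0.35, edgeR adjusted p = 4.9e-05). BBX22, an activator of light responses, had 67.0, 86.9 and 71.2 CPM under UV-B against 23.9, 32.5 and 27.3 CPM in the mutant (log2 fold change 1.43 ± 0.15, edgeR adjusted p = 9.5e-06). BBX29 (2.22 ± 0.46), BBX30 (2.096 ± 0.48) and BBX31 (1.74 ± 0.33) were higher without overlap. BBX19 (-0.12 to 0.52) and BBX21 (-0.51 to 0.07) were not called and bounded below 2-fold.

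Clock genes were higher in 9 of 21 cases and lower in 2 (42.9% and 9.52%, beside 17.6% and 12.7% of all genes). Bounded differences numbered 13 (61.9%, beside 71.1% of all genes). ELF4 and LUX, members of the evening complex that represses PIF4 in the evening, differed in opposite directions. ELF4 had 48.0, 41.8 and 40.6 CPM in wild type under UV-B, against 12.3, 19.02 and 16.2 CPM in pif4-101 pif5-1 in white light (log2 fold change 1.45 ± 0.17, edgeR adjusted p = 1.9e-05). LUX had 19.1, 17.4 and 16.5 CPM against 39.6, 43.8 and 37.8 CPM (log2 fold change -1.19 ± 0.11, edgeR adjusted p = 2.6e-06). The morning gene RVE1 was higher (log2 fold change 0.98 ± 0.11, edgeR adjusted p = 1.8e-05), as was PRR9 (log2 fold change 1.38 ± 0.39, edgeR adjusted p = 0.016), whose call was lost without UV-B replicate 3 or mutant replicate 1. PRR3 was lower (log2 fold change -1.18 ± 0.19, edgeR adjusted p = 0.00038). TOC1 (-0.18 to 0.21), GI (-0.56 to 0.29), ELF3 (-0.04 to 0.45), CCA1 (0.07 to 0.62) and FKF1 (-0.38 to 0.40) were not called and bounded below 2-fold. The labels describe continuous light, and the time of day of sampling is not given in the sources used here.

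Of 6 photoreceptor genes for red and blue light, PHYB, PHOT2 and CRY2 were higher and PHYA lower. These are 50% and 16.7%, beside 17.6% and 12.7% of all genes. PHYB, the main red light receptor, had 119, 126 and 131 CPM in wild type under UV-B, against 71.2, 59.2 and 64.4 CPM in pif4-101 pif5-1 in white light (log2 fold change 0.95 ± 0.09, edgeR adjusted p = 2.8e-06). PHOT2, a blue light receptor of chloroplast movement, had 466, 494 and 478 CPM under UV-B against 297, 246 and 286 CPM in the mutant (log2 fold change 0.79 ± 0.10, edgeR adjusted p = 5.5e-05). PHYA, the far-red receptor, had 219, 237 and 258 CPM against 344, 341 and 319 CPM (log2 fold change -0.49 ± 0.15, edgeR adjusted p = 0.021), a call lost without UV-B replicate 1, UV-B replicate 2 or mutant replicate 1. CRY2 differed by 0.21 ± 0.07, and its call was lost without 5 of the 6 libraries, all but mutant replicate 2.

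Of 23 chlorophyll and antenna genes 18 were bounded below 2-fold (78.3%, beside 71.1% of all genes), 4 were called higher (17.4%, beside 17.6%) and 2 lower (8.7%, beside 12.7%), shares near those of all genes. With upper quartile scaling or library size alone 5 were lower. The antenna genes LHCB2.1 (-0.43 to 0.54), LHCB2.2 (-0.61 to 0.45), LHCB6 (-0.58 to 0.26) and LHCB5 (-0.67 to 0.24) had intervals around 0. HEMA1, the entry enzyme of tetrapyrrole synthesis, had 453, 557 and 721 CPM in wild type under UV-B, against 608, 524 and 598 CPM in pif4-101 pif5-1 in white light (95% interval -0.34 to 0.34), and white-light wild type had a mean of 336 CPM. The 2 lower members, PORA and PORB, encode protochlorophyllide oxidoreductases. PORB had 109.7, 107 and 136 CPM in wild type under UV-B, against 442, 335 and 450.3 CPM in pif4-101 pif5-1 in white light (log2 fold change -1.80 ± 0.18, edgeR adjusted p = 5.2e-06). PORA was low in UV-B wild type but had a mean of 8.62 CPM in uvr8-6 under UV-B. PSBS, which dissipates excess light energy, had 1521, 1308 and 1757 CPM under UV-B against 681, 492 and 671 CPM in the mutant (log2 fold change 1.31 ± 0.16, edgeR adjusted p = 4.1e-05). GUN4 (0.53 ± 0.16), GUN5 (0.61 ± 0.18) and PORC (0.49 ± 0.15) were called higher, and all 3 calls were lost without UV-B replicate 3 or mutant replicate 2.

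Beyond the list, the antenna genes CAB1 and LHB1B1 were lower under UV-B, a choice made with their values in view. CAB1 had 19887, 14601 and 21759 CPM in wild type under UV-B, against 43879, 35904 and 36656 CPM in pif4-101 pif5-1 in white light (log2 fold change -1.05 ± 0.29, edgeR adjusted p = 0.015). LHB1B1 (AT2G34430) had 7837, 7428 and 11236 CPM against 24179, 18653 and 23582 CPM (log2 fold change -1.33 ± 0.30, edgeR adjusted p = 0.0042). CAB1, CAB3 and LHCB1.1 are near-identical neighbours, so their counts are uncertain against each other, and CAB3 was not called (log2 fold change -0.65 ± 0.26, edgeR adjusted p = 0.076). Of 4 greening regulator genes none was called by edgeR at the adjusted threshold. GLK1 (-0.51 to 0.06), GLK2 (-0.41 to 0.28) and GNC (-0.10 to 0.53) were bounded, and CGA1 had 44.0, 30.9 and 41.6 CPM under UV-B against 31.9, 22.6 and 24.5 CPM in the mutant with a mean of 11.3 CPM in white-light wild type.

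Cytokinin type-A response regulators, whose transcripts report cytokinin signalling and dampen it, were lower in 6 of 9 cases and higher in none. The lower share was 66.7%, beside 12.7% of all genes, and the median log2 fold change was -1.02. ARR7 had 11.4, 11.8 and 14.8 CPM in wild type under UV-B, against 31.4, 45.1 and 35.5 CPM in pif4-101 pif5-1 in white light (log2 fold change -1.56 ± 0.17, edgeR adjusted p = 1.2e-05). ARR6 had 13.0, 18.6 and 18.7 CPM against 28.6, 50.9 and 41.5 CPM (log2 fold change -1.26 ± 0.23, edgeR adjusted p = 0.00083). ARR15 (-1.27 ± 0.29), ARR16 (-1.02 ± 0.20) and ARR5 (-1.16 ± 0.34) were lower too, with ARR5 lost without UV-B replicate 1 or mutant replicate 2. ARR4 was called with a bounded difference (-0.41 ± 0.10), and ARR8 (-0.38 to 0.08) and ARR9 (-0.23 to 0.26) were bounded without a call. Against the shared white-light wild type 2 of the 9 were lower in UV-B wild type and 4 higher in the mutant. These counts were 1 and 1 without white-light wild-type replicate 1 or 3, and 2 and 3 without replicate 2. Over all genes 11.3% were lower in UV-B wild type and 1.72% higher in the mutant. For ARR7 UV-B wild type lay at a log2 fold change of -0.59 (edgeR adjusted p = 0.019) from white-light wild type and the mutant at 0.97 (edgeR adjusted p = 0.0064).

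Among 10 tested heat shock and oxidative stress genes 4 were higher (40%, beside 17.6% of all genes) and none lower. AOX1A, the alternative oxidase of mitochondria, had 39.4, 54.4 and 49.9 CPM in wild type under UV-B, against 10.6, 12.8 and 14.1 CPM in pif4-101 pif5-1 in white light (log2 fold change 1.94 ± 0.18, edgeR adjusted p = 3.5e-06). ZAT12, a zinc finger gene of general stress, had 13.6, 20.1 and 16.7 CPM against 5.94, 4.88 and 8.23 CPM (log2 fold change 1.40 ± 0.34, edgeR adjusted p = 0.007). APX1 (0.57 ± 0.11), an ascorbate peroxidase gene, and CSD1 (0.59 ± 0.20), a superoxide dismutase gene, were higher by less, with CSD1 lost without 5 of the 6 libraries, all but UV-B replicate 1. HSP101 (-0.26 to 0.32) and HSFA2 (-0.62 to 0.92), the heat stress chaperone and factor genes, were bounded below 2-fold.

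Of 10 DNA damage genes 1 was higher and 1 lower, which is 10% each, beside 17.6% and 12.7% of all genes. SMR5, a cell cycle inhibitor gene, had 1.30, 1.69 and 1.40 CPM in wild type under UV-B, against 0.310, 0.263 and 0.610 CPM in pif4-101 pif5-1 in white light (log2 fold change 1.85 ± 0.36, edgeR adjusted p = 0.0011). SOG1, the master regulator of the plant damage response, had 11.6, 11.9 and 12.5 CPM against 17.2, 16.5 and 17.2 CPM (log2 fold change -0.50 ± 0.09, edgeR adjusted p = 0.0006). BRCA1 (-0.01 to 0.91) and PARP2 (-0.67 to 0.16), genes of DNA repair, were bounded below 2-fold without a call.

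The median log2 fold change of cold-regulated genes was 1.72, which does not change with COR15A at its bound. Of 8 tested, 4 were higher (50%, beside 17.6% of all genes) and none was lower. Beside COR15A these were KIN1, RD29A and COR47. KIN1 had 18.1, 25.9 and 16.6 CPM in wild type under UV-B, against 2.04, 0.563 and 1.59 CPM in pif4-101 pif5-1 in white light (log2 fold change 3.86 ± 0.60, edgeR adjusted p = 0.00033). RD29A, a dehydration and abscisic acid responsive gene, had 148, 187 and 94.3 CPM under UV-B against 25.9, 33.4 and 37.2 CPM in the mutant (log2 fold change 2.15 ± 0.20, edgeR adjusted p = 3.5e-06), while uvr8-6 under UV-B had a mean of 133 CPM. The dehydrin gene COR47 had 1219.9, 1458 and 1169 CPM under UV-B against 419.6, 614 and 549 CPM in the mutant (log2 fold change 1.28 ± 0.15, edgeR adjusted p = 2.4e-05). Their regulators CBF1, CBF2 and CBF3 were not called, and their intervals were wider than 2-fold.

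Suberin and endodermis genes were higher in 9 of 12 cases (75%, beside 17.6% of all genes) and lower in none. Their median log2 fold change was 0.98. ABCG6, a transporter gene of suberin deposition, had 49.8, 51.6 and 32.0 CPM in wild type under UV-B, against 8.78, 4.80 and 10.3 CPM in pif4-101 pif5-1 in white light (log2 fold change 2.48 ± 0.31, edgeR adjusted p = 4.2e-05). GPAT5 had 12.1, 14.96 and 8.72 CPM under UV-B against 2.44, 1.73 and 2.95 CPM in the mutant (log2 fold change 2.33 ± 0.34, edgeR adjusted p = 0.00015). CYP86B1 averaged 14.2 ± 3.25 CPM against 3.15 ± 0.894 CPM (SD, n = 3; log2 fold change 2.17 ± 0.29, edgeR adjusted p = 8.5e-05); both encode enzymes of suberin monomers. KCS2 (1.85 ± 0.23) and ASFT (1.76 ± 0.25), genes of fatty acid elongation and of feruloyl transfer, were higher too. In uvr8-6 under UV-B the mean levels were 49.4 CPM of ABCG6, 10.9 CPM of GPAT5 and 107 CPM of ASFT, near those of UV-B wild type. The endodermis markers CASP1 (0.80 ± 0.19) and SCR (0.61 ± 0.09) are members of this list and were themselves higher. The summed root markers were higher in each UV-B library than in each mutant library. That sum was carried by CASP1 and SCR, whereas the root hair markers did not share the direction, since EXPA7 had 27.9, 14.5 and 13.1 CPM under UV-B against 12.5, 25.5 and 25.4 CPM in the mutant and COBL9 was lower. The part of root share in these results was not tested.

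Root hair genes were lower in 2 of 7 cases (28.6%, beside 12.7% of all genes), and the other 5 were not called. The count ranged from 1 to 5 with single libraries left out. RHD6, the initiating transcription factor gene, had 1.21, 1.57 and 1.70 CPM in wild type under UV-B, against 4.39, 4.84 and 4.20 CPM in pif4-101 pif5-1 in white light (log2 fold change -1.58 ± 0.26, edgeR adjusted p = 0.00041). COBL9 had 11.3, 7.48 and 9.77 CPM under UV-B against 11.2, 17.5 and 16.6 CPM in the mutant (log2 fold change -0.67 ± 0.23, edgeR adjusted p = 0.038), overlapping, and its call was lost without UV-B replicate 2, UV-B replicate 3, mutant replicate 2 or mutant replicate 3. Of 4 tested seed storage genes none was called by edgeR, and all 4 had intervals wider than 2-fold.

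Of 9 tested salicylic acid genes PR5 and PAD4 were higher (22.2%, beside 17.6% of all genes) and none was lower. PR5, a pathogenesis-related gene, had 1.17, 2.94 and 3.01 CPM in wild type under UV-B, against 0.177, 0 and 0.237 CPM in pif4-101 pif5-1 in white light (log2 fold change 4.04 ± 0.76, edgeR adjusted p = 0.00044). PAD4 differed by 0.58 ± 0.13. PR1 and the synthesis gene PBS3 had too few reads to be tested, and ICS1, the main synthesis gene, was bounded (-0.23 to 0.21). Of 10 jasmonate genes VSP2 (1.84 ± 0.48) and VSP1 (1.33 ± 0.42), storage proteins induced by the hormone, were higher and the factor gene MYC2 (-0.45 ± 0.15) and the synthesis gene OPR3 (-0.35 ± 0.11) lower, of which VSP1, MYC2 and OPR3 were lost without at least 1 library each. These are 20% in each direction, beside 17.6% and 12.7% of all genes. Of 9 ethylene genes 1 was higher and 1 lower, which is 11.1% each, beside the same shares of all genes. The higher count was 0 with upper quartile scaling, with library size alone and with some single libraries left out. The lower one was ACS5, a synthesis gene (log2 fold change -1.96 ± 0.54, edgeR adjusted p = 0.013; lost without UV-B replicate 2). Of 12 glucosinolate genes SOT16 alone was called (log2 fold change 0.36 ± 0.12, edgeR adjusted p = 0.034), and higher, which is 8.33% beside 17.6% of all genes. Its call was lost without 4 of the 6 libraries, and 9 genes were bounded below 2-fold (75%, beside 71.1% of all genes). Over the alternatives other than the 1.5-fold test the number higher ranged from 0 to 4.

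The counterpart to these differences is a set of genes that stood away from white-light wild type in both groups and at nearly the same level in each. The 12 named were called in the same direction against white-light wild type in both side comparisons and had a bounded interval between the states, so their likeness was part of how they were chosen and is given as a description. AT1G12080, which encodes a vacuolar calcium-binding-like protein, had 235, 248 and 279 CPM in wild type under UV-B, against 223, 230.3 and 203 CPM in pif4-101 pif5-1 in white light, while white-light wild type had 1363, 765 and 874 CPM. AT2G14900, of the gibberellin-regulated family, had 5.66, 7.24 and 5.28 CPM under UV-B and 4.30, 7.69 and 6.81 CPM in the mutant, and 28.6, 20.1 and 19.3 CPM in white-light wild type. FDH, formate dehydrogenase, had 136, 95.7 and 111 CPM under UV-B and 94.96, 131 and 110.1 CPM in the mutant, and 337, 247 and 315 CPM in white-light wild type. In each of these the UV-B and mutant libraries lay far below every white-light wild-type library.

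The other genes alike in this sense included enzymes of the cell wall. XTH17 had 47.0, 89.6 and 50.4 CPM under UV-B and 44.9, 119.7 and 64.1 CPM in the mutant (95% interval of the log2 fold change -0.996 to 0.41), with a mean of 201 CPM in white-light wild type. XTH15, described above, was among them, as was ATPMEPCRD, of the invertase and pectin methylesterase inhibitor superfamily (-0.68 to 0.39). AT4G29030, a putative membrane lipoprotein gene, was the one raised in both, with 10.9, 13.9 and 15.5 CPM under UV-B and 19.9, 8.82 and 12.6 CPM in the mutant against a mean of 5.38 CPM in white-light wild type. The rest were the transcribed pseudogene AT4G21730 (-0.73 to 0.62), the glutaredoxin gene AT5G39865 (-0.48 to 0.59), the kinase gene AT3G24715 (-0.31 to 0.32), WRKY60 (0.05 to 0.95) and the arabinogalactan protein gene AGP7 (-0.87 to -0.10). The last 2 intervals exclude 0, and AGP7 passed the test between the states in 9 of 18 alternatives. XTH15 and AT3G24715 share bases with a gene on the other strand.

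The promoters of the first 2 of these genes are shown for comparison with those above. The AT1G12080 window holds 1 PBE-box at position -89, and that of AT2G14900 holds neither motif.
AT1G12080, chr1:4083912-4084211, plus strand: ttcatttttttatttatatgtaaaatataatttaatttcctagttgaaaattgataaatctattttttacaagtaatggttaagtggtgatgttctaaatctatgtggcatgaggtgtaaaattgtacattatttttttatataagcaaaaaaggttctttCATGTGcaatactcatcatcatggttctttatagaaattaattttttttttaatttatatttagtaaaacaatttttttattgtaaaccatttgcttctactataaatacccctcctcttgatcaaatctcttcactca
AT2G14900, chr2:6403881-6404180, plus strand: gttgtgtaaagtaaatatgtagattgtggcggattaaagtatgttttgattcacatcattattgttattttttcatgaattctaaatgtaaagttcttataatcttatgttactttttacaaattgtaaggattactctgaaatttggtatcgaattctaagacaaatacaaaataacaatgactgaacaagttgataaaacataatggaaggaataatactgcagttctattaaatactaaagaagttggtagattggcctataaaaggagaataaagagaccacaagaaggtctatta

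Over all genes with a promoter in the RefSeq table, 20730 of 20833, the 300-base window held a G-box in 8.74% and a PBE-box in 13%. Among genes at least 2-fold higher under UV-B than in the mutant 12.5% held a G-box and 14.8% a PBE-box. Among genes at least 2-fold lower 8.69% held a G-box and 21.9% a PBE-box. These shares describe letters in a window on both strands and were not tested.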

How the data were processed

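RNA-seq of whole seedlings was made by the authors from 400 ng of total RNA with a stranded mRNA kit and 100 bp single-end reads, per the labels' protocols. STAR 2.5.3a, HTSeq 0.9.1, FastQC 0.11.5, edgeR 3.22.3 and the build TAIR10 are listed in the submitters' processing notes without their roles, and whether counting used strand is not given in the sources used here. The deposited table of raw counts per gene was used; a second deposited table, in which those counts of filtered genes are multiplied by 1 factor per library, was not used.

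Genes were kept with edgeR's filterByExpr, scaled by TMM and fitted over all 15 libraries with 1 mean per group (10 residual degrees of freedom), so that the 5 groups share 1 estimate of spread. Wild type under UV-B was tested over pif4-101 pif5-1 in white light with the quasi-likelihood F test (edgeR 4.0.16, limma 3.58.1, R 4.3.3), Benjamini-Hochberg adjusted over 20833 genes, with calls at 0.05. SE and 95% intervals are Wald values, and "bounded" means an interval within -1 to 1 on the log2 scale. Levels are CPM of the TMM-scaled library. The fit was tested on simulated data.

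The 24 genes of largest difference, 12 alike genes and up to 5 called and all bounded genes per list could be named, and 25 lists held 364 genes, 351 of them tested. The members and lists were chosen with earlier results of these data known. Genes named outside this rule, such as HY5, COP1, DFR, WAG1, CGA1, CBF1, CAB1 and LHB1B1, were chosen after their values were seen. Of the gene identifiers, 32835 matched RefSeq names (TAIR10.1), from which promoters were taken. Alternatives were 3 other scalings, 3 other filters, the compared libraries alone, a replicate block, a test against a 1.5-fold change, DESeq2 1.42.0, limma-voom and each compared library left out. Leaving out each white-light wild-type library for the side counts was added after seeing the data. Values of 3 list members are not reported here, although the list counts include them. Depth per library is given with the results.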

Additional observations from a re-analysis of the deposited data

How the results depend on the processing

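The count of differing genes was 6304, and it was 6282 with RLE scaling, 6965 with upper quartile scaling, 6224 with library size alone, 5181 with the 6 libraries alone, 6741 with DESeq2 and 6143 with limma-voom. Against a 1.5-fold change 1492 remained, 1074 higher and 418 lower, and 379 were lower by at least 2-fold. With upper quartile scaling 4190 genes were lower. A filter of at least 10 CPM left 13167 genes, of which 645 were at least 2-fold higher and 248 at least 2-fold lower. With 1 compared library left out, the total ranged from 4778 to 5861, genes higher from 3026 to 3386 and lower from 1752 to 2475, at least 2-fold higher from 1107 to 1223 and at least 2-fold lower from 553 to 722. Genes with a bounded interval ranged from 13849 to 14533 beside 14802. For same-numbered replicates of the 2 compared groups the deviations from the group means correlated at -0.02, 0.29 and -0.10. For differently numbered ones the correlations ranged from -0.26 to 0.29. With 3 libraries per group these values cannot show whether same-numbered libraries share an effect. A replicate block gave 6763 calls, and 5291 with the 6 libraries alone. A further count covers 39 genes, which are the 12 leading genes of each direction, the 12 alike genes, PIF4, PIF5 and UVR8. Of their 710 values under alternatives 698 kept their direction and side of the threshold. A call was gained in 10 (AGP7 and WRKY60) and lost in 2 (AT3G01345 and LCR85 by limma-voom). Except for PIF4, PIF5 and UVR8 these genes were chosen by their values, so their stability was partly set by that choice. Other named list members are outside this count, and some were less stable. LDOX was called in 6 of 17 alternatives and DFR in 12 of 17, while HY5 was called in 18 of 18. Of 900 list counts 755 stayed within 1.5 times, 49 were larger and 96 smaller. Cause of these shifts was not tested. Genes under about 0.1 CPM in a library are at the limit that 3 reads allow.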

Other observations

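Most genes of RNAs that are not translated were not called between UV-B wild type and white-light pif4-101 pif5-1, as was the case for protein-coding genes. The uncalled share was 69.5% for protein-coding genes, 73.9% for long non-coding RNA genes and 65.4% for miRNA genes. Of 26 tested miRNA genes 1 was higher and 8 were lower than in white-light pif4-101 pif5-1. The higher one, MIR163, whose product targets methyltransferase genes, had 60.8, 66.7 and 53.5 CPM in wild type under UV-B, against 4.88, 9.23 and 6.95 CPM in pif4-101 pif5-1 in white light (log2 fold change 3.097 ± 0.20, edgeR adjusted p = 1.3e-07), without overlap. The 8 lower ones were MIR159b, MIR825, MIR169a, MIR167a, MIR156c, MIR822, MIR162a and MIR160c, and the values are those of primary transcripts, not of mature miRNAs. Of 165 long non-coding RNA genes 11 were higher and 32 lower, of 143 pseudogenes 9 and 26, of 122 transcribed pseudogenes 8 and 28, of 99 other non-coding RNA genes 6 and 14, and of 17 small nucleolar RNA genes 0 and 5, beside 17.6% and 12.7% over all genes. The lower share was thus 19.4% for long non-coding RNA genes and 14.1% for the other non-coding ones. No difference between these classes and coding genes was tested. These groups were looked at after the values were seen, and strand and overlap with coding genes were not taken into account.

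AT3G01345 had 1.34, 96.7 and 100.1 CPM in UV-B wild type and 99.2, 0.638 and 94.0 CPM in white-light wild type, by library, and at most 1 CPM in pif4-101 pif5-1 and uvr8-6. AT4G08093 was near 10 CPM in each pif4-101 pif5-1 library and at most 0.554 CPM in all 12 others. AT5G35935 was above 20 CPM in each pif4-101 pif5-1 and uvr8-6 library and below 10 CPM in each wild-type library. No cause was tested for any of them.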
